A study of Mus musculus with 20 samples.

Results

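The genes described here are 10 of the 46078 genes counted by TRAP–seq in adipocytes of mouse epididymal adipose tissue (epiAT), chosen by name for their part in MHC class I presentation and the immunoproteasome. They are Ubd, Psmb8, Psmb9, Psmb10, Tap1, Tap2, B2m, H2-K1, H2-D1 and Nlrc5, and all 10 passed the filter on low counts. TRAP–seq sequences the mRNA bound to tagged ribosomes. All 20 mice carried the AdipoERCre and NuTRAP alleles, in which tamoxifen activates a Cre driven by the Adipoq promoter. This Cre labels the ribosomes of adipocytes with GFP, by which they were purified from homogenized tissue. Each library came from 1 mouse.

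In the short arm, mice received a high-fat diet (HFD) for 12 weeks (H) or stayed on low-fat chow (C) and were examined at 18 weeks of age, or were kept on chow for another 8 weeks, to an age of 26 weeks. The latter groups are named HC where HFD came first and CC_s where chow did, and each short-arm group held 3 mice. In the long arm, HFD lasted 25 weeks. HH mice and their CC_l controls were examined at an age of 31 weeks. HHC mice ate chow for 8 weeks after HFD and were, like their CCC controls, 39 weeks old, and each long-arm group held 2 mice. HC and HHC are the weight loss (WL) groups. The control of each such group was the chow group of its own arm and age, and the sample descriptions carry a different prefix in each arm, with no statement of what it marks.

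MHC class I molecules show peptides from inside a cell to CD8 T cells. The proteasome cuts proteins into peptides, and interferon gamma replaces its constitutive catalytic subunits Psmb5, Psmb6 and Psmb7 by Psmb8, Psmb9 and Psmb10, which together make the immunoproteasome. Tap1 and Tap2 form the transporter that carries peptides into the endoplasmic reticulum, where they are loaded on a heavy chain such as H2-K1 or H2-D1 paired with the light chain B2m. Nlrc5 is the transactivator of the class I genes. Ubd encodes FAT10, a ubiquitin-like protein that marks proteins for the proteasome and is inducible by interferon gamma and tumour necrosis factor. Nearly every nucleated cell type uses this pathway, immune cells strongly.

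The members lie at few places in the genome (mm10, GENCODE vM21). Psmb9 (chr17:34181987-34187764), Tap1 (chr17:34187553-34197225), Psmb8 (chr17:34197721-34201454) and Tap2 (chr17:34203527-34216321) are neighbours in the MHC region, which also holds H2-K1 (chr17:33996017-34000347), H2-D1 (chr17:35262730-35267499) and Ubd (chr17:37193892-37196095). B2m (chr2:122147686-122153083), Psmb10 (chr8:105935735-105938444) and Nlrc5 (chr8:94434356-94527272) lie elsewhere. Psmb9 and Tap1 start head to head on opposite strands, and 212 exon bases belong to both.

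Promoter sequence was found in the RefSeq promoter table (GRCm38.p6) for 8 of the 10 members. The stretches of 250 bases before the RefSeq gene start are shown for the members that were called in a comparison or that hold a match, because they let the regulatory letters be set beside the values. Capitals mark matches, on either strand, to the interferon-stimulated response element (ISRE, GAAANNGAAA), the gamma-activated site (GAS, TTCNNNGAA) or the NF-kB motif. These matches are letters in a window and not measured binding sites. The RefSeq starts differ from the outermost GENCODE starts given above, so that the stretches of Psmb8, H2-D1 and Psmb9-Tap1 lie inside the GENCODE gene bounds.
Ubd (chr17:37193642-37193891, plus strand): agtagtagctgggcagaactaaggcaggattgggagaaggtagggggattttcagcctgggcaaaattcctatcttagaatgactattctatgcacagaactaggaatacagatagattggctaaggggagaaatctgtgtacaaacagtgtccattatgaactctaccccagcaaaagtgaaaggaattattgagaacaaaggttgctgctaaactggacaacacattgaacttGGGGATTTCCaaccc
Psmb8 (chr17:34197945-34198194, plus strand): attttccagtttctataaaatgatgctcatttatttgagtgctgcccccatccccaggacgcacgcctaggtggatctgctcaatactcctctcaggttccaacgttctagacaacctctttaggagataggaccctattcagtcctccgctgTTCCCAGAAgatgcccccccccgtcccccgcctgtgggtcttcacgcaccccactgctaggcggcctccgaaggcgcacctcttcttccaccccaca
B2m (chr2:122147437-122147686, plus strand): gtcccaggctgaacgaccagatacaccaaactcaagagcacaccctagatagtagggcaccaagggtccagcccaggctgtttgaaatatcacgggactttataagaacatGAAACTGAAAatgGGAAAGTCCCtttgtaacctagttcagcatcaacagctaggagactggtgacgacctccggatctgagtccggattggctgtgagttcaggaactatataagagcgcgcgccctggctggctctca
H2-K1 (chr17:34000348-34000597, minus strand): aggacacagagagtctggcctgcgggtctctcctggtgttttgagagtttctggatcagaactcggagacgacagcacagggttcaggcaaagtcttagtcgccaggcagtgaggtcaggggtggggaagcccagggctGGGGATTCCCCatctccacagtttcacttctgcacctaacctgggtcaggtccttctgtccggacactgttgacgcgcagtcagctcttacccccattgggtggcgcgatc
H2-D1 (chr17:35262844-35263093, plus strand): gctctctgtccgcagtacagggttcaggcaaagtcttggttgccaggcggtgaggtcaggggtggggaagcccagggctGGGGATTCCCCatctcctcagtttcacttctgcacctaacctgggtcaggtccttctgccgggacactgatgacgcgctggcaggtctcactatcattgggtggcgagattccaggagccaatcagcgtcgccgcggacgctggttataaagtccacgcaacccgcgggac
Psmb9-Tap1 (chr17:34187331-34187555, plus strand): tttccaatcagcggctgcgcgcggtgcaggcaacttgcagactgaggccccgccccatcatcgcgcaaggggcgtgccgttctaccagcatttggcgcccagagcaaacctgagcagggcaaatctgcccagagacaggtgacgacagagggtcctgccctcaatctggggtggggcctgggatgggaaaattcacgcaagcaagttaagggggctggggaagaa

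An NF-kB match stood 15 to 6 bases before the start of Ubd, and the same motif was found in B2m, H2-K1 and H2-D1, that is in 4 of the 8 members, against 8.23% of 27025 genes. A gene was counted when any of its promoter stretches of this length held a match. H2-K1 and H2-D1 hold the same letters there, which contain overlapping matches. B2m alone held an ISRE match (3.46% of all these genes), and Psmb8 alone a GAS match (8.13%). The 225 bases between the RefSeq starts of Psmb9 and Tap1 held none of these motifs. Only these patterns were searched, so a stretch without a match may still hold a looser form of an element.

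Levels are given as CPM, the counts of a gene scaled to a common TMM-adjusted library size, in the order of replicates 1 to 3 (or 1 and 2). A gene was called when edgeR's quasi-likelihood test gave a nominal p under 0.01 and the log2 fold change reached 1 in either direction, the cut-offs of the study. The Benjamini-Hochberg adjusted p over all 21464 tested genes is given beside it, and log2 fold changes carry their SE. Depth was 10710277 to 36738954 counts per library, so that 3 counts correspond to 0.280 CPM in the shallowest and 0.0817 CPM in the deepest library.

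Several properties of the libraries touch the results. Macrophage markers were called higher in 6 of 10 cases in H against C and in HC against CC_s, in 10 in HH against CC_l and in 0 in HHC against CCC, and no marker of this list was at 0 throughout a group. The summed macrophage marker level was 217 to 381 CPM in C and 599.6 to 3227 CPM in H, 228 to 291 in CC_s and 538 to 1387 in HC, 224 to 358 in CC_l and 3389 to 4484 in HH, and 727 to 844 in CCC and 646 to 1371 in HHC. Of the 8 adipocyte markers, summing to at least 12332 CPM in every library, edgeR called 1 higher in H and 0 in the other comparisons. In HH, however, their median log2 fold change was -1.43, beside -0.23 over all tested genes. Their sum was 26053 to 32062 CPM in HH against 58187 to 62967 CPM in CC_l. In the short arm it was 20298 to 130748 CPM in C, 31219 to 57547 in H, 77105 to 115945 in CC_s and 13962 to 77505 in HC. In CCC it was 12332 to 71030 CPM and in HHC 48868 to 84656 CPM. The highest sum of all libraries was that of C replicate 3 and the lowest that of CCC replicate 2. Endothelial markers were called higher in 4 of 5 cases in H and in 5 in HH and lower in 2 in HHC, and progenitor markers higher in 4 of 6 in HH. Because these are bulk pulldowns, more cells of a type and more RNA per cell cannot be told apart, and the part of RNA of these other cells in the results was not tested. Some libraries stood apart. C replicate 1, 1 of the 3 controls of H, had summed epididymal epithelium markers of 1818 CPM, beside 8.44 and 25.5 CPM in C replicates 2 and 3. CC_l replicate 1, 1 of the 2 controls of HH, had summed spermatid markers of 3114 CPM, and HC replicate 3 had 434 CPM, the highest leukocyte sum of the short arm (1017 CPM) and an adipocyte sum of 13962 CPM. HHC replicate 1 had the highest leukocyte sum of all 20 libraries (1686 CPM), beside 233 CPM in HHC replicate 2 and 294 to 333 CPM in CCC. The nuclear RNAs Malat1 and Neat1 summed to 20136 to 37052 CPM in C replicates 1 and 2, HC replicate 3 and CCC replicate 2. The slope of log2 CPM against log2 transcript length ranged from -0.42 (CC_l replicate 1) to 0.38 (CCC replicate 2) between libraries.

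Ubd was the member with the highest log2 fold change in all 4 comparisons. In C mice its level was 2.83, 4.27 and 4.21 CPM and in H mice 274, 314 and 113 CPM. Every H mouse stood far above every C mouse. The log2 fold change was 5.95 ± 1.03 (SE), adjusted p = 0.00801. After WL, HC mice had 49.2, 56.4 and 33.3 CPM and their CC_s controls 12.2, 3.2 and 3.42 CPM. The HC mice lay between the C and H levels and did not overlap with their controls. Ubd was called here at the nominal threshold, with a log2 fold change of 2.89 ± 0.90 (SE), adjusted p = 0.536.

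In the long arm Ubd stood at 2.5 and 5.76 CPM in CC_l and at 164 and 375 CPM in HH, with a log2 fold change of 6.04 ± 1.27 (SE), adjusted p = 0.0264. Both HH mice were far above both controls, and without CC_l replicate 1 the log2 fold change was 5.55. In HHC mice it was 769 and 41.9 CPM and in CCC mice 40.0 and 4.5 CPM. HHC replicate 1 had the highest Ubd level of all 20 libraries, whereas HHC replicate 2 exceeded CCC replicate 1 only slightly. The log2 fold change was 4.19 ± 1.16 (SE), adjusted p = 0.237, and without HHC replicate 1 it was 0.91 and without CCC replicate 2 it was 3.34, in both cases no longer called. The call in HC was lost without CC_s replicate 2, CC_s replicate 3 or HC replicate 2 (log2 fold changes of 2.57, 2.60 and 2.72).

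**Figure D1:**
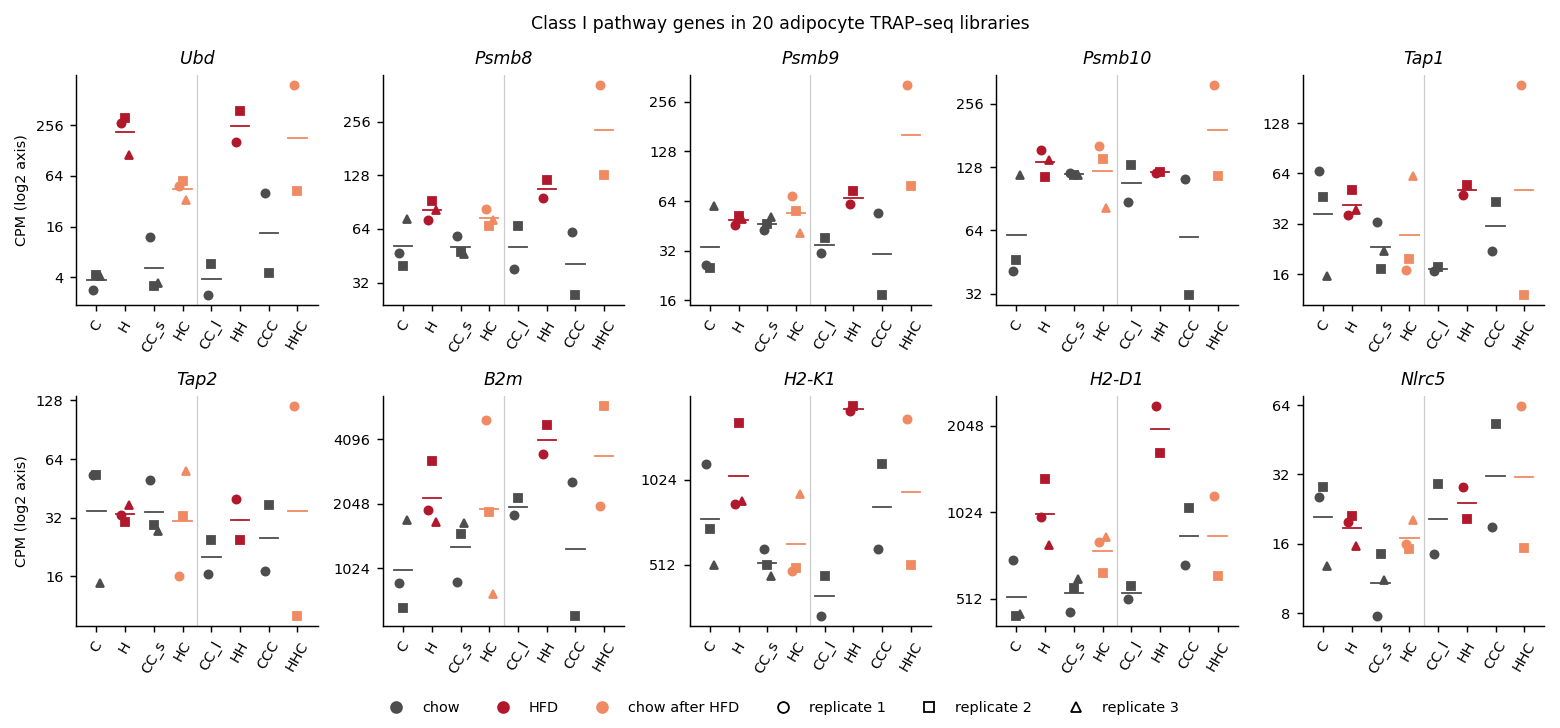
Each panel plots one of the 10 genes, with TMM-scaled CPM on a log2 axis against the 8 groups (points, mice; bars, geometric mean of the group; vertical line, border between the arms). Ubd separates H, HC and HH from their chow controls, and HHC replicate 1 is the highest library for Ubd, Psmb8, Psmb9, Psmb10, Tap1, Tap2 and Nlrc5.

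The number of members called was 1 in H against C (Ubd), where 3.57% of all tested genes were called higher, and 1 in HC against CC_s (Ubd), where 1.57% were. It was 3 in HH against CC_l (Ubd, H2-K1 and H2-D1; 4.92% of all genes) and 3 in HHC against CCC (Ubd, Psmb8 and Psmb9; 0.447%). No member was called lower, which 2.92% of all genes were in H, 0.172% in HC, 1.88% in HH and 2.67% in HHC. At an adjusted p under 0.05, edgeR left Ubd alone in H (1.28% of all genes higher) and in HH (1.75%). In HC and in HHC, 0 members and 0% of all genes passed this threshold, while 1 and 4 members had a nominal p under 0.05. Of all 21464 tested genes, 1866 and 2292 had a nominal p under 0.05 in HC and HHC, and 3665 and 3732 in H and HH. DESeq2 passed 268 and 458 genes in HC and HHC at an adjusted p under 0.05. The number of members called by edgeR also changed when a mouse was left out. In HHC the count was 1 without HHC replicate 1 or CCC replicate 2 and 6 without HHC replicate 2. In HH it was 1 without HH replicate 1 or either CC_l mouse, and in H it was 2 without C replicate 3. The median log2 fold change of the 10 members was 0.56 in H, 0.47 in HC, 1.05 in HH and 1.44 in HHC, beside -0.15, 0.27, -0.23 and -0.06 over all tested genes.

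**Figure D2:**
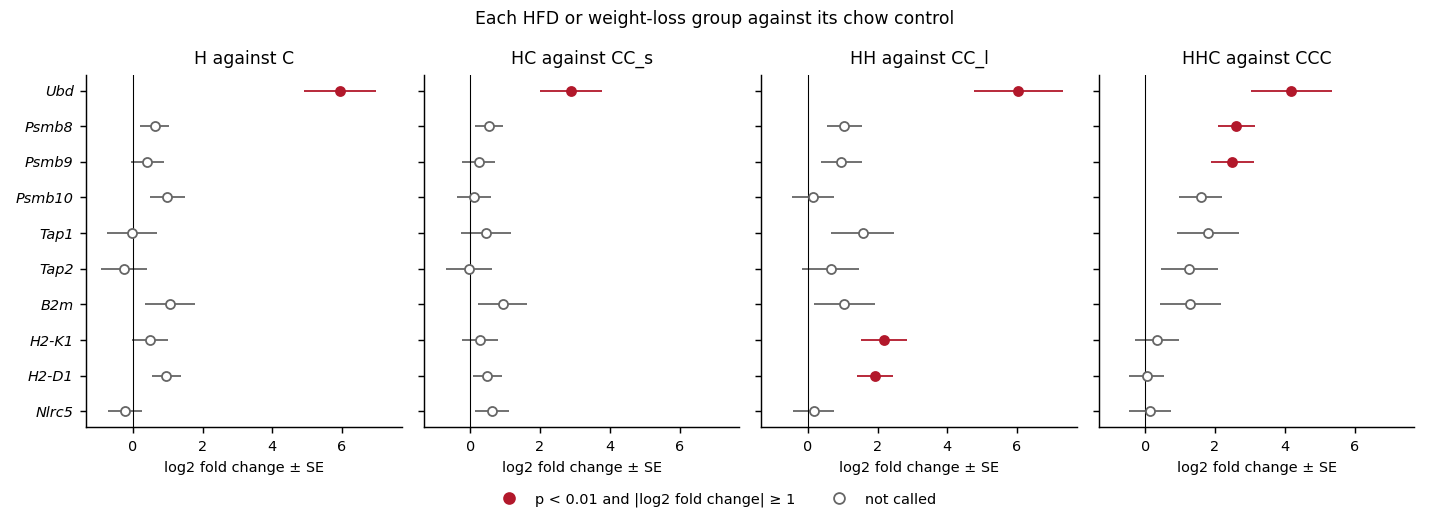
The log2 fold change (x axis) of each of the 10 genes in the 4 comparisons is plotted with its SE, and red points mark called genes. Ubd is called in all 4 panels, H2-K1 and H2-D1 in HH against CC_l, and Psmb8 and Psmb9 in HHC against CCC.

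Psmb8 and Psmb9 encode the immunoproteasome subunits that replace Psmb5 and Psmb6. Psmb8 was at 61.2 and 27.4 CPM in CCC mice and 410.2 and 128 CPM in HHC mice, a log2 fold change of 2.60 ± 0.53 (SE), adjusted p = 0.161. Psmb9 was at 53.8 and 17.3 CPM and 323 and 78.9 CPM in the same groups, a log2 fold change of 2.50 ± 0.61 (SE), adjusted p = 0.196. In both genes the groups did not overlap, and HHC replicate 1 was the highest of the 20 libraries. Without this mouse the log2 fold change was 1.53 for Psmb8, which stayed called, and 1.14 for Psmb9, which did not, nor did it without CCC replicate 2 (1.90).

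In HH mice Psmb8 was 95.8 and 121 CPM against 38.3 and 66.8 CPM in CC_l, and Psmb9 61.5 and 73.5 against 31.0 and 38.4 CPM. The groups did not overlap for either gene, but neither was called (log2 fold changes of 1.05 ± 0.50 and 0.96 ± 0.59). In the short arm Psmb8 was 46.8, 39.5 and 72.8 CPM in C, 71.9, 91.7 and 81.5 in H, 58.7, 47.5 and 46.3 in CC_s and 82.5, 66.8 and 71.9 in HC. C replicate 3 reached into the range of the H mice, whereas HC and CC_s did not overlap. Psmb9 was 26.0, 25.2 and 59.4 CPM in C, 46.0, 51.9 and 50.0 in H, 42.9, 46.3 and 51.3 in CC_s and 68.8, 56.0 and 40.8 in HC, and the groups overlapped in both comparisons.

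Psmb10, the subunit that replaces Psmb7, was not called by edgeR with TMM scaling in any comparison. It was 41.3, 46.4 and 117 CPM in C and 155, 115 and 139 CPM in H (log2 fold change 0.99 ± 0.49 (SE), adjusted p = 0.315), with C replicate 3 inside the range of H. In CC_s it was 119, 118 and 118 CPM and in HC 162, 139 and 81.5 CPM. In the long arm it was 87.6 and 131 CPM in CC_l, 120.5 and 122 in HH, 112 and 31.7 in CCC and 314 and 117 in HHC. Both HHC mice were above both CCC mice (log2 fold change 1.58 ± 0.61 (SE), adjusted p = 0.364), the second by a small margin. Without HHC replicate 1 this value was 0.69 and without CCC replicate 1 it was 2.76. Psmb10 was called in HHC by DESeq2 and with RLE scaling (log2 fold change 1.74 in both), without the filter (1.66), and without CCC replicate 1 or HHC replicate 2, and in H without C replicate 3 (1.63).

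The mRNA of each immunoproteasome subunit was set beside that of its constitutive counterpart as a log2 ratio of CPM within a library. Exchange of the subunits in proteasomes was not measured. The ratio of Psmb9 to Psmb6 was -3.00, -2.94 and -3.00 in C and -2.51, -2.75 and -2.44 in H. All H mice were above all C mice, and the exact two-sided permutation test gave p = 0.1, the smallest value that 3 against 3 mice allow (adjusted p = 0.4 over the 12 ratio tests). The ratio of Psmb10 to Psmb7 was -0.01, 0.06 and -0.10 in C and 0.43, 0.21 and 0.80 in H, again without overlap and with exact permutation p = 0.1. Psmb8 to Psmb5 overlapped, with a difference of the means of -0.01 (exact permutation p = 1).

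In HH against CC_l all 3 ratios were higher in both HH mice. The difference of the mean log2 ratios was 1.77 for Psmb8 to Psmb5, 1.53 for Psmb9 to Psmb6 and 0.84 for Psmb10 to Psmb7, each with an exact permutation p = 0.333, the smallest that 2 against 2 mice allow. Psmb5 was 98.1 and 113 CPM in CC_l and 60.2 and 72.3 in HH, and its log2 fold change of -0.68 ± 0.76 was not called. Psmb6 was 413 and 580 CPM in CC_l and 260 and 420 in HH, and Psmb7 155 and 217 in CC_l and 104 and 129 in HH. Psmb10 itself had a log2 fold change of 0.15 ± 0.60 in HH, with overlap. Its higher ratio therefore went with lower Psmb7 more than with higher Psmb10. In HC against CC_s the ratio of Psmb8 to Psmb5 was -0.18, -0.47 and 1.32 against -0.47, -0.81 and -1.01 (difference 0.99, exact permutation p = 0.1), and the other ratios overlapped. The groups were barely apart, and without HC replicate 3 the difference was 0.44. In HHC against CCC all 3 ratios overlapped, with HHC replicate 1 high. HHC replicate 2 lay below both CCC mice for Psmb9 to Psmb6 (-3.385 against -3.242 and -2.637). It also did for Psmb10 to Psmb7 (-0.894 against -0.622 and 0.286). For Psmb8 to Psmb5 it lay between them (0.578 against -0.687 and 0.68).

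**Figure D3:**
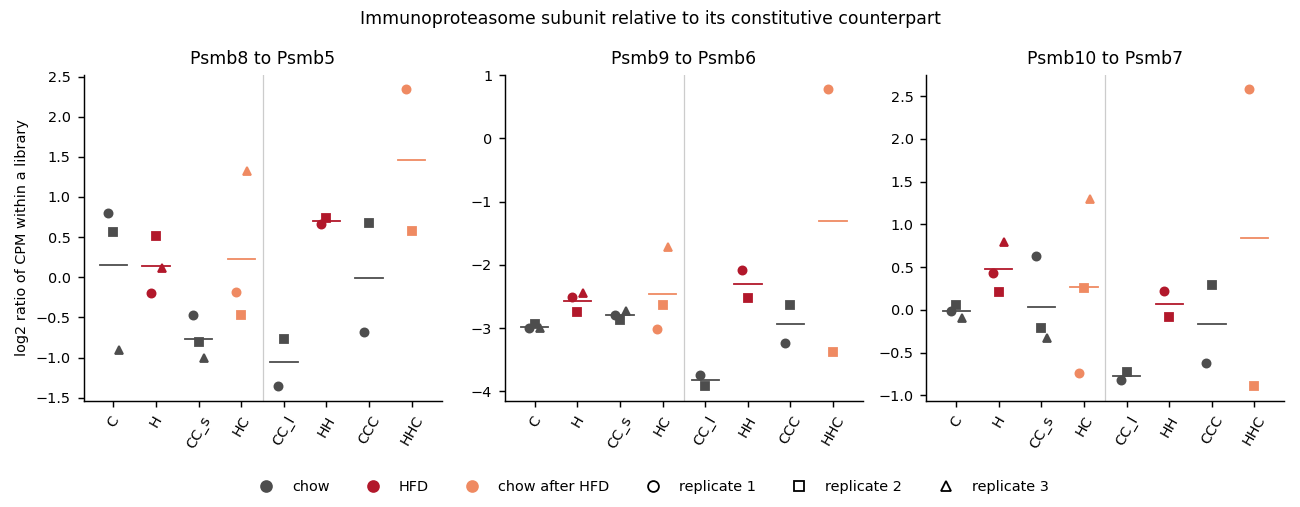
The log2 ratio of CPM of each immunoproteasome subunit to the subunit it replaces (y axis) is plotted for each mouse in the 8 groups, with bars at the group means. The HH mice lie above the CC_l mice in all 3 panels, and HHC replicate 1 is the highest library in all 3.

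Tap1 and Tap2, the transporter subunits, were not called by edgeR in any comparison with the settings above. Tap1 was called in HH without the filter (log2 fold change 1.66) and with the compared groups alone (1.64), and in HHC without the filter (1.85) or without HHC replicate 2 (2.72). Tap2 was called in HHC with the length slope as a covariate (1.77) or without HHC replicate 2 (2.15). Tap1 was 66.2, 46.2 and 15.7 CPM in C and 36.0, 50.7 and 38.9 in H, 32.6, 17.1 and 22.1 in CC_s and 16.8, 19.6 and 62.0 in HC. In the long arm it was 16.7 and 17.7 CPM in CC_l and 47.5 and 54.6 in HH (log2 fold change 1.57 ± 0.90 (SE), adjusted p = 0.37), where the groups did not overlap, and 22.1 and 43.4 in CCC and 216 and 12.1 in HHC. HHC replicate 1 was the highest and HHC replicate 2 the lowest library of all for Tap1. Tap2 was 53.3, 53.0 and 14.7 CPM in C, 32.9, 30.5 and 37.3 in H, 49.8, 29.5 and 27.2 in CC_s, 16.1, 32.5 and 55.6 in HC, 16.3 and 24.4 in CC_l, 39.9 and 24.5 in HH, 17.0 and 36.9 in CCC and 119.7 and 10.0 in HHC. For Tap2 the groups overlapped in H, HC and HHC, and HH lay just above CC_l. Strand was not stated for the counting, and 5.79% of the exon bases of Psmb9 overlap with Tap1, 14.1% of those of Tap2 with Gm15821 and 14.7% of those of Psmb8 with Gm20496, so reads there cannot be told apart.

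The heavy chains H2-K1 and H2-D1 were called after 25 weeks of HFD. H2-K1 was 338 and 466 CPM in CC_l and 1795 and 1872 CPM in HH, a log2 fold change of 2.19 ± 0.65 (SE), adjusted p = 0.0934. H2-D1 was 510.4 and 565 CPM in CC_l and 2399 and 1653 CPM in HH, a log2 fold change of 1.91 ± 0.52 (SE), adjusted p = 0.0625. Both HH mice were far above both controls, and 8 of the 10 members lay without overlap above CC_l, beside 26.3% of all tested genes. Leaving out 1 mouse at a time ended the call of H2-K1 in 4 of 4 cases (log2 fold change 1.98 to 2.47) and that of H2-D1 in 3 of 4 (1.64 to 2.18). The summed T and NK cell markers were 11.5 to 21.2 CPM in CC_l and 50.6 to 54.6 CPM in HH.

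In the short arm H2-D1 was 696, 446 and 452 CPM in C and 983, 1338 and 789 CPM in H, without overlap (log2 fold change 0.96 ± 0.41 (SE), adjusted p = 0.24), and 461, 559 and 599 in CC_s and 805, 627 and 837 in HC. The H2-D1 groups did not overlap in HC either, where 4 of 10 members lay above their controls, beside 8.01% of all genes (Ubd, Psmb8, H2-D1 and Nlrc5). In H this held for 2 members, Ubd and H2-D1, beside 13.4%, and in HHC for 4, Ubd and the Psmb subunits, beside 8.49%. H2-K1 was 1169.6, 686 and 513 CPM in C, 841, 1626 and 859 in H, 584, 511 and 469 in CC_s and 488, 499 and 911 in HC, with overlap in both comparisons. In CCC and HHC, H2-K1 was 580.2 and 1167 and 1687 and 513 CPM, and H2-D1 673 and 1062 and 1168 and 614 CPM, again with overlap. Of the 50-base words of their transcripts, H2-K1 shares 9.63% and H2-D1 12.8% with other genes, most with H2-Q10 and H2-Q1, so part of their reads is uncertain.

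B2m, the light chain, had the highest level per kilobase of exon of the 10 members in every group, with a mean of 1267 CPM per kb in C. It was 876, 669 and 1724 CPM in C and 1930.0, 3244 and 1688 CPM in H, 889, 1476 and 1661 in CC_s and 5052, 1869.8 and 778 in HC. In the long arm it was 1813 and 2185 CPM in CC_l and 3503 and 4768 in HH, and 2589 and 617 in CCC and 2004 and 5861 in HHC. B2m was not called by edgeR in any comparison (log2 fold changes of 0.94 to 1.29), and HH was the group without overlap. Nlrc5 was the lowest member per kilobase in every group (2.62 CPM per kb in C). It was 25.7, 28.3 and 12.8 CPM in C, 19.9, 21.1 and 15.7 in H, 7.81, 14.4 and 11.2 in CC_s, 15.9, 15.2 and 20.4 in HC, 14.5 and 29.1 in CC_l, 28.3 and 20.4 in HH, 18.9 and 53.1 in CCC and 63.4 and 15.3 in HHC. HC lay just above CC_s, and the other Nlrc5 groups overlapped.

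The level of some members moved with the length slope of the library. Over the 20 libraries, which share the 8 groups, Pearson's r with the slope was 0.65 for Tap2, 0.54 for Tap1 and 0.51 for Nlrc5, and -0.64 for B2m, whose transcript is short. For Ubd it was -0.06. With the slope as a covariate, Ubd and H2-D1 were called in H against C, and the sign of Tap1, Tap2 and Nlrc5 in H turned. The part of library length bias in the results was not otherwise tested.

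**Figure D4:**
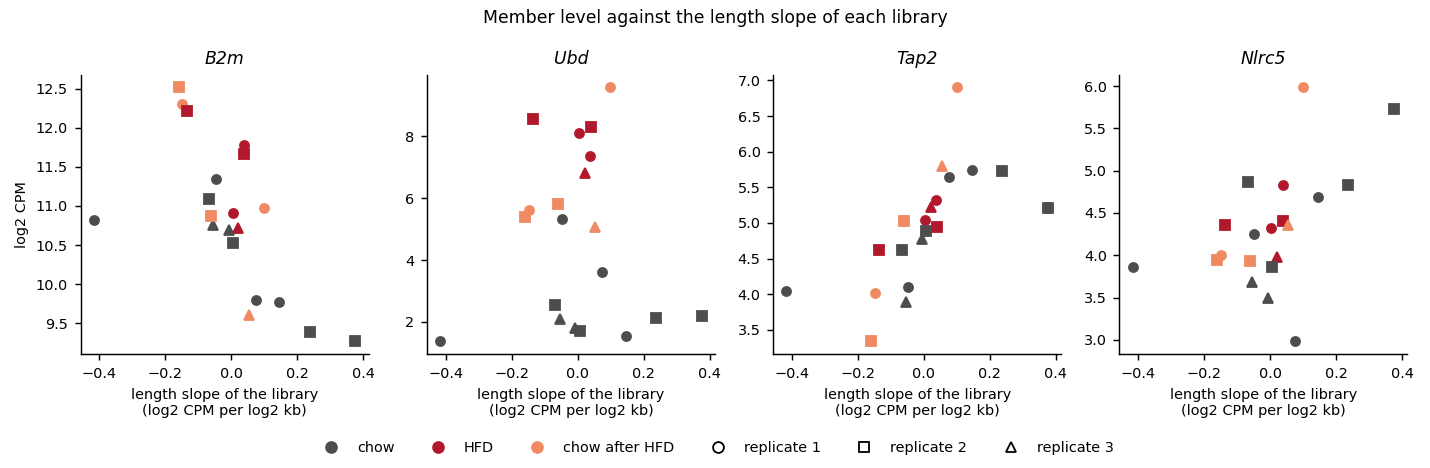
The log2 CPM of B2m, Ubd, Tap2 and Nlrc5 (y axes) is plotted against the slope of log2 CPM on log2 transcript length of each library (x axis), 1 point per mouse. B2m runs down and Tap2 up along the slope, and Ubd shows no such course.

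The effects of diet before and after WL were compared as an interaction. For Ubd the log2 fold change in HC was 3.06 ± 1.21 (SE) below that in H (adjusted p = 0.353), and in HHC 1.85 ± 1.46 below that in HH (adjusted p = 0.564). H2-D1 had a log2 difference of -1.87 ± 0.71 between HHC and HH (adjusted p = 0.213), H2-K1 one of -1.86 ± 0.89 (adjusted p = 0.327) and Psmb8 one of 1.56 ± 0.71 (adjusted p = 0.3). The difference of Ubd between HHC and HH was -5.15 without HHC replicate 1, -2.72 without CCC replicate 2, 0.43 without CCC replicate 1 and -0.94 without HHC replicate 2, and that of Psmb8 was 0.47 without HHC replicate 1. For H2-K1 it was -2.98 without HHC replicate 1. With edgeR, 0 of the 10 members passed an adjusted p under 0.05 in either interaction, beside 0% of all genes for HC and H and 0.815% for HHC and HH. A nominal p under 0.05 was reached by 1 and 2 members (11.8% and 15.5% of all genes), and DESeq2 passed 0 and 1 (H2-D1).

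The other genes of the pathway were taken from fixed lists. Of 15 further subunits and assembly factors of the catalytic core, among them Psmb5, Psmb6 and Psmb7, edgeR called 0 in every comparison, with 0 at a nominal p under 0.05, and 1 in HHC without CCC replicate 1. The median log2 fold change of this list was 0.01 in H, -0.19 in HC, -0.53 in HH and 0.65 in HHC. Over all tested genes it was -0.15, 0.27, -0.23 and -0.06. A positive value was found for 2 of the 15 in HH and for 15 in HHC. In HHC, however, 0 of the 15 lay without overlap above CCC, beside 8.49% of all genes. Psmb6, for example, was 509 and 108 CPM in CCC and 189 and 825 CPM in HHC. Psmb7 was 172 and 26.0 CPM in CCC and 52.5 and 217 CPM in HHC. Of the 4 proteasome activators edgeR called 0, with 1 at a nominal p under 0.05 (in HHC). DESeq2 called 1 there (Psme1), edgeR called 2 there without CCC replicate 1, and 1 was called in H without C replicate 3. Of 6 genes of peptide loading and trimming, 1 was called in H, Pdia3, a disulfide isomerase of the loading complex, and 4 in HH. Pdia3 was 109, 127 and 56.8 CPM in C and 279, 559.5 and 182 in H (log2 fold change 1.80 ± 0.42 (SE), adjusted p = 0.0327), and 120.3 and 119 in CC_l and 611 and 558 in HH (2.29 ± 0.52 (SE), adjusted p = 0.0322). The chaperone Canx rose with a log2 fold change of 2.21 ± 0.55 (SE), adjusted p = 0.0468 in HH, and Tapbp, or tapasin, with 1.64 ± 0.54 (SE), adjusted p = 0.131. Leaving out 1 mouse ended the call of Tapbp in 4 of 4 cases and left 2 of the list called in HH without either CC_l mouse or HH replicate 1. With the compared groups alone Pdia3 was not called in H (1.70). edgeR called no gene of this list in HC or HHC, where 0 had a nominal p under 0.05.

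Of the 14 other class I heavy chains, 12 were tested. In H, 2 were called higher (H2-Q6 and H2-Q7) and 1 lower (H2-Q10), in HC the same 2 were called higher, in HH 3 (H2-M3, H2-T23 and H2-Q7) and in HHC edgeR called 0, with 1 at a nominal p under 0.05. When H replicate 2 was left out, 1 was called in H. In HC the count was 0 without CC_s replicate 2, CC_s replicate 3 or HC replicate 3 and 1 without CC_s replicate 1. It was 0 in HH without CC_l replicate 1, and 1 in HHC without CCC replicate 1 or either HHC mouse. H2-Q7 in HC was also lost with RLE scaling, the compared groups alone, the replicate block and halved counts (log2 fold changes of 1.49 to 1.60). H2-M3 and H2-T23 had log2 fold changes of 2.65 ± 0.68 (SE), adjusted p = 0.0507 and 2.54 ± 0.65 (SE), adjusted p = 0.0514 in HH, and H2-Q10 one of -2.18 ± 0.62 (SE), adjusted p = 0.0764 in H. H2-Q7 was 9.15, 6.35 and 6.27 CPM in C and 19.2, 46.6 and 19.3 in H, and 3.84, 3.03 and 4.82 in CC_s and 8.31, 7.31 and 18.9 in HC. It lay without overlap above the controls in both. H2-Q6 had a log2 fold change of 1.92 ± 0.55 (SE), adjusted p = 0.075 in H and 1.87 ± 0.55 (SE), adjusted p = 0.536 in HC. Reads of these genes may be shared among near-identical copies. Of the 8 partners of Nlrc5 at class I promoters and the 6 class I receptors of lymphocytes, edgeR called 0 in the 4 comparisons, with 1 partner (HC) and at most 2 receptors (HH) at a nominal p under 0.05. DESeq2 called 1 partner in H (Rfx5). Without the filter 1 receptor was called in each of H (Cd8b1), HC (Cd8a) and HH (Klrd1), with the compared groups alone 2 in HH, and leaving out CC_s replicate 3 gave 2 in HC.

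**Figure D5:**
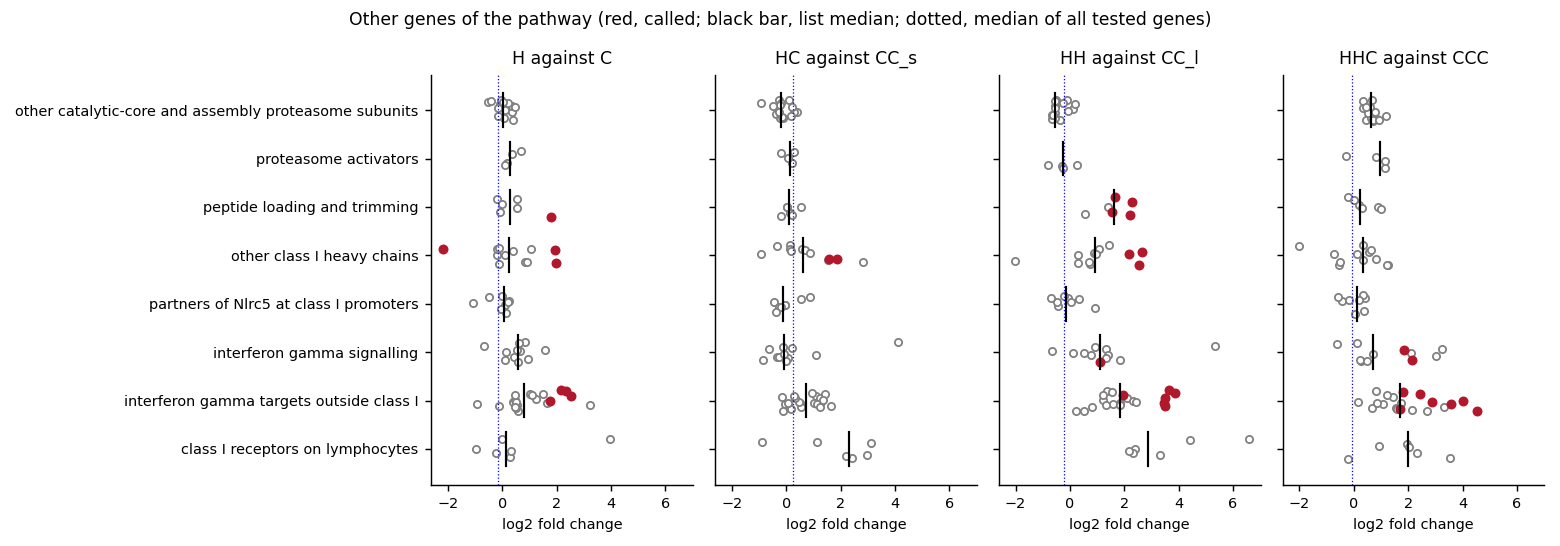
Each point is a gene of the list on the y axis, and the x axis gives its log2 fold change in the 4 comparisons (red, called; black bar, list median; dotted line, median of all tested genes). The peptide-loading list is shifted in HH with 4 of 6 called, and the proteasome core list has 0 called in every panel.

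Of 20 interferon gamma targets outside class I, edgeR called 4 in H, 0 in HC (3 at a nominal p under 0.05), 6 in HH and 7 in HHC. The count in H was 1 without H replicate 2 and 2 without C replicate 3, and 8 without the filter. In HC it was 4 without the filter, and in HH 13 without the filter and 15 with the compared groups alone. In H and HH the called genes with the largest changes encode MHC class II chains or their partner Cd74, which antigen-presenting cells use, for example H2-Ab1 with 156 and 112 CPM in CC_l and 1809 and 2089.5 in HH (log2 fold change 3.86 ± 0.80 (SE), adjusted p = 0.0253). In HHC they were interferon-inducible GTPases. Iigp1 was 18.6 and 13.2 CPM in CCC and 712 and 20.8 in HHC (log2 fold change 4.52 ± 1.03 (SE), adjusted p = 0.17), Igtp 19.2 and 9.55 and 457 and 9.69, and Irgm2 19.7 and 18.9 and 451 and 14.0. In all 3 genes HHC replicate 1 stood alone, and without it 2 of the 20 targets were called, against 2 without CCC replicate 2, 4 without CCC replicate 1 and 14 without HHC replicate 2.

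Among 11 genes of interferon gamma signalling, edgeR called 0 in H and HC (3 and 0 at a nominal p under 0.05), or 1 (Irf8) in each without the filter, and Jak2 was called in HH (log2 fold change 1.09 ± 0.33 (SE), adjusted p = 0.103) but not without CC_l replicate 1 or HH replicate 1 (0.84 and 0.88). Those called in HHC included Irf1, an interferon-induced transcription factor. It was 40.1 and 38.5 CPM in CCC and 320.3 and 29.7 in HHC (log2 fold change 2.15 ± 0.69 (SE), adjusted p = 0.285), and without HHC replicate 1 its log2 fold change was -0.41. The call was also lost without either CCC mouse (2.18 and 2.12). Ifng itself was 3.69 CPM in HHC replicate 1 and at most 0.454 CPM in the other libraries, 14 of which had a count of 0. The summed T and NK cell markers were 139 CPM in HHC replicate 1, beside 30.8 CPM in HHC replicate 2 and 15.9 to 18.3 CPM in CCC. Of the 11 markers, 8 had a positive log2 fold change in HHC, and edgeR called 1 higher. The T cell genes Cd8a and Trac were 12.9 and 12.2 CPM in HHC replicate 1, and this library had the lowest depth. The part of T cell RNA in the HHC results was not tested.

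The members differed in how they moved with each other. Over the 20 libraries Pearson's r of log2 CPM was 0.94 between Psmb8 and Psmb9, 0.86 between Tap1 and Tap2, 0.86 between Psmb9 and Psmb10 and 0.85 between H2-K1 and H2-D1, and it was lowest, at -0.57, between Tap2 and B2m. The 5 tested genes outside the members whose log2 CPM was most like that of Ubd were Man1c1 and Gngt2 (r = 0.906 each), Serpinb6b (0.901), Ccl6 (0.895) and Serpinb9 (0.894). For the mean of the scaled members they were Irgm1 (0.954), F830016B08Rik (0.939), Rac2 (0.936), Gbp2 (0.93) and Cxcl16 (0.927). These values describe 20 libraries that share groups, depth and length slope.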

How the data were processed

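TRAP–seq libraries from 20 mice in 8 groups were analysed. The authors trimmed the reads (Trim Galore 0.6.6), aligned them to mm10 with HISAT2 2.2.1, counted them per gene with featureCounts of Subread 2.0.1 and deposited whole-number read counts without normalization. Which annotation was counted, with which strand setting and how read pairs were treated is not given in the sources used here. Between 74.4% and 89.2% of the nonzero counts of a library were even, so halved counts were an alternative. Symbols and positions were taken from GENCODE vM21 (98.0% of 46078 genes matched).

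From the deposited counts, genes were filtered with filterByExpr (21464 tested), scaled with TMM and fitted with edgeR 4.0.16 (R 4.3.3, quasi-likelihood, all 20 libraries in 8 groups). Log2 CPM used a prior count of 2. Subunit ratios were tested by exact permutation (two-sided). Alternatives were DESeq2 1.42.0, RLE scaling, no filter, the compared groups alone, the replicate number as a block, halved counts, the adjusted p and leaving out each mouse. The length slope as a covariate was added after the data had been seen. In simulated counts, 200 genes were changed 4-fold in H, and recovery was read in H against C, with 3 mice per group. Of these genes 91 were recovered, 0 were called in the wrong direction, and 173 of 20312 unchanged genes were called. Recovery with 2 mice per group was not tested. The members and lists were chosen with earlier results of these data known. Named genes were the members, per list up to 3 called genes with the largest change, Psmb5, Psmb6, Psmb7, Ifng and Irf1, and the genes most like the members. The values of some further genes of this rule are not reported here. Counting error alone underlies the stated limits of 3 counts. Figures were drawn with matplotlib 3.10.9 (python 3.11.15).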

Additional observations from a re-analysis of the deposited data

How the results depend on the processing

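Each group held 2 or 3 mice, and Ifng had a count of 0 in 14 of 20 libraries. The other settings gave 280 values of the members' log2 fold changes, without the adjusted p threshold and the runs that left out a mouse. Of these, 258 kept direction and side of the threshold, most of them uncalled in both fits. Another 10 turned sign, 9 became called and 3 lost their call. The cause of the changes was not tested. The counts of the pathway lists also moved, as given beside them. At an adjusted p under 0.05, HC and HHC had 0 called members and HH had 1. When no filter was set, 5 members were called in HHC and 1 member (Ubd) differed between HC and H. When the fit held the compared groups alone, 5 were called in HH and 1 in HHC. DESeq2 gave 1 member (H2-D1) that differed between HHC and HH, and the length slope gave 2 called in H. Leaving out 1 mouse each, the members called ranged from 1 to 2 in H, 0 to 1 in HC, 1 to 2 in HH and 1 to 6 in HHC.

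Some log2 fold changes near 0 turned sign. Psmb6 in H was -0.035 with RLE, -0.035 with DESeq2, -0.067 with only the compared groups and -0.25 with the length slope, and Tap2 in HC was 0.10 without the filter. With the length slope as a covariate, Tap1, Tap2 and Nlrc5 in H were 0.49, 0.36 and 0.17. Psmb10, Tap2, Psmb6 and Psmb7 in HC were then -0.058, 0.25, -0.39 and -0.41. Tap2 and Nlrc5 in HH were -0.43 and -0.48, and Psmb6 and Psmb7 in HHC -0.026 and -0.34.

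The correlation of deviations from the group means between same-numbered mice was -0.28 to 0.19. With 2 or 3 mice per group these deviations are bound to each other within a group. They therefore cannot decide whether the replicate numbers pair the mice. With the replicate block, 1, 1, 2 and 3 members were called in H, HC, HH and HHC, and Tap2 in HC was 0.0062 and H2-D1 in HHC -0.0052. H2-K1 in HH was the call lost.

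Leaving out 1 mouse each turned the sign of further log2 values or brought them to 0, given from lowest to highest. In H they were Tap1 -0.43 to 0.45, Tap2 -0.66 to 0.0008, Psmb5 -0.15 to 1.47, Psmb6 -0.22 to 0.55, Ifng -2.77 to 3.52 and the ratio of Psmb8 to Psmb5 -0.54 to 0.31. In HC they were Psmb10 -0.099 to 0.34, Tap1 -0.40 to 0.77, Tap2 -0.55 to 0.31, B2m -0.02 to 1.36, H2-K1 -0.085 to 0.43, Psmb5 -0.51 to 0.11, Psmb6 -0.43 to 0.47, Psmb7 -0.69 to 0.68, Ifng 0.00 to 4.69, Irf1 -0.12 to 0.61, the ratio of Psmb9 to Psmb6 -0.027 to 0.62 and the ratio of Psmb10 to Psmb7 -0.27 to 0.75. In HH they were Psmb10 -0.10 to 0.50, Nlrc5 -0.25 to 0.78 and Ifng 0.00 to 6.32. In HHC they were Tap1 -1.45 to 2.72, Tap2 -1.44 to 2.15, H2-K1 -0.77 to 0.95, H2-D1 -0.50 to 0.43, Nlrc5 -1.24 to 1.05, Irf1 -0.41 to 3.02, Igtp -0.58 to 4.99, Irgm2 -0.47 to 4.54, Psmb5 -0.24 to 2.28, Psmb6 -0.71 to 2.23, Psmb7 -0.92 to 2.37, Ifng -5.32 to 8.32, the ratio of Psmb9 to Psmb6 -0.45 to 3.71 and the ratio of Psmb10 to Psmb7 -0.73 to 2.75. The fits of Ifng, with counts of 0 in most libraries, depend on the prior count and are no measure of its change.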
